A study of Mus musculus with 4 samples.

Results

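Whole retinas that lacked Norrin, a secreted ligand encoded by Ndp, were compared with wild-type retinas at postnatal day 10, with 1 pooled RNA sequencing library of each genotype. The deposited table held 23278 genes for 4 libraries. The comparison used 12470 of them, which had a usable status in every library and averaged 1 FPKM or more across them. FPKM are counts of sequenced fragments, scaled by transcript length and by the size of the library. Genes on the X and Y chromosomes and short RNAs named Mir, Snor, Scarna or Rnu were left out, which removed 435 and 238 genes that would otherwise have entered. The pair of libraries compared was labelled WT and NdpKO. The other pair, called stabilized and stabilized NdpKO here, differed in Ndp in the same way, but both of its members also carried Ctnnb1flex3/+ and Pdgfb-CreER. Ctnnb1flex3 becomes a stabilized form of beta-catenin after recombination, and Pdgfb-CreER is a recombinase that is driven in endothelial cells and switched on by tamoxifen. Mice of all 4 genotypes, WT and NdpKO included, had been injected with 4HT (20 ug), an active metabolite of tamoxifen, at postnatal day 3, and were of a mixed strain background containing at least C57BL6 and 129. For each library, RNA of 3 batches, each from 4 to 8 retinas of 2 to 4 mice, was pooled, so that no spread between animals was left and no test between genotypes could be made.

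Norrin is secreted by Muller glia and binds Frizzled-4 (Fzd4) on endothelial cells, together with the co-receptor Lrp5 and the tetraspanin Tspan12. Binding keeps beta-catenin from being degraded, and beta-catenin then acts with transcription factors of the TCF/LEF family in the nucleus. In the retina the pathway is needed for vessels to grow down into the neural layers and for the blood-retina barrier, whose endothelial cells are sealed by Cldn5, carry nutrient transporters and lack the fenestral diaphragm protein Plvap. Loss of human NDP causes Norrie disease, in which the inner retinal capillary beds do not form.

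The label of the knockout fitted the Ndp value. Ndp (chromosome X, 16885522 to 16911764, mm10) had a level of 2.98 FPKM in WT, with a deposited interval of 2.17 to 3.80, and of 0.873 FPKM in NdpKO (0.561 to 1.19), and at 2.35 and 0.869 FPKM in stabilized and stabilized NdpKO. The sex-linked genes moved with the Ndp genotype in both pairs: Xist was at 135 FPKM in WT and 1.25 FPKM in NdpKO, and 4 Y-linked genes were between 6.11 and 51.4 FPKM in NdpKO and under 0.4 FPKM in WT. Loss of Ndp and the sex of the pooled mice therefore cannot be told apart in any gene below. The deposited FPKM summed to 423695 in WT and 417911 in NdpKO, and read totals were not used here. The deposited interval of a gene reached to either side by a median of 31% of its value where WT was under 2 FPKM. It was 21% between 2 and 10 FPKM and 14.6% at 10 FPKM or more. Relative widths were compared over 6642 genes at no more than 10 FPKM in every library. In the other 3 libraries they were a median of 0.997 to 1.00 times those in WT. Whether depth differed was not tested. The intervals describe the estimate within a library, not the spread between mice.

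Few genes differed. A gene was called when the log2 ratio of (FPKM + 0.5) between NdpKO and WT was at least 1.5-fold (0.58 on the log2 scale) and the deposited intervals of the libraries did not overlap. By this rule 30 genes were called higher in NdpKO (0.241% of the genes compared) and 26 lower (0.209%), 56 in all (0.449%). The fold alone was passed by 48 genes higher (0.385%) and 58 lower (0.465%), and intervals alone were apart for 52 higher (0.417%) and 35 lower (0.281%). At 2-fold with intervals apart there were 5 higher (0.0401%) and 12 lower (0.0962%). Hba-a2, Cldn5, Spp1 and Zfp534 were among the called genes of lowest ratio, and those of highest ratio were Hbb-b2, Atp6v0c-ps2, Rec8, Plvap and Tnfrsf8. The median log2 ratio over all genes was -0.02, 44% of genes were above 0 and 56% below 0, and 99.1% of genes lay within 1.5-fold. Many called genes were low: WT was under 5 FPKM for 20 of the 30 higher and 13 of the 26 lower genes. By WT level, 19 of 1200 genes under 2 FPKM were called, 22 of 4515 between 2 and 10 FPKM, and 15 of 6755 at 10 FPKM or more. On the 1.5-fold line, Slc24a1 and Trf (both 0.60) lay just inside, while Cdh5 (0.57), Krt18 (0.56), Slfn5 (-0.57) and Zfp433 (-0.56) lay just outside with intervals apart.

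**Figure D1:**
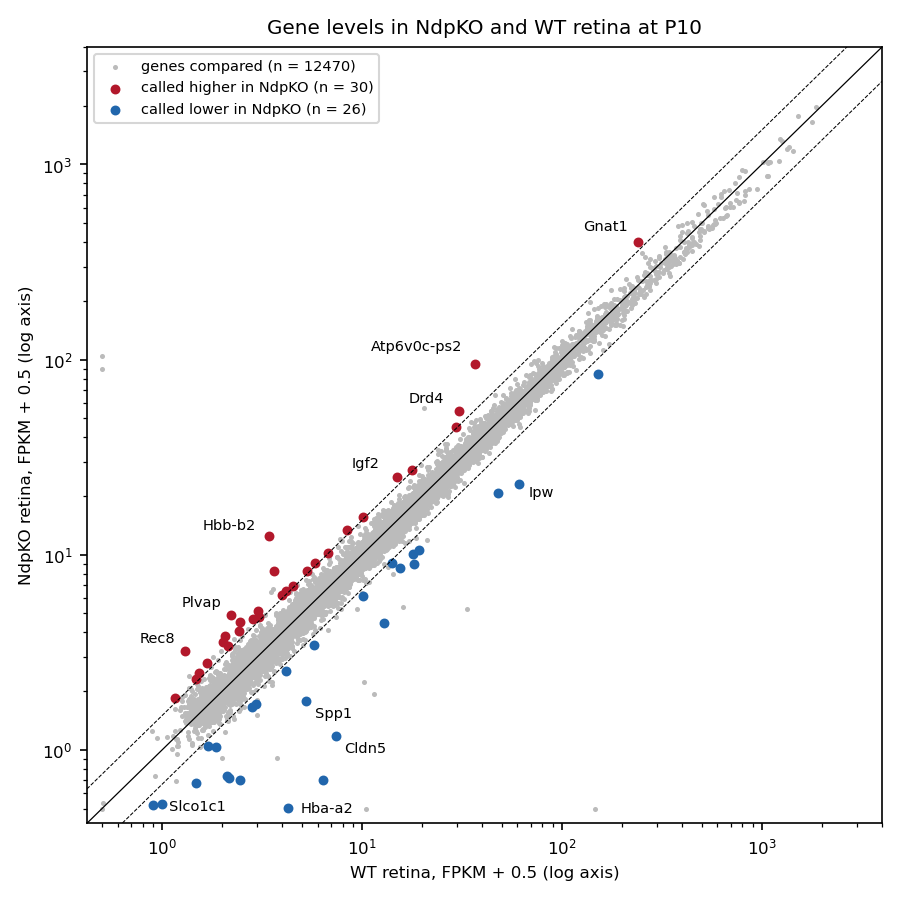
Each point is 1 of 12470 genes, with its level in WT on the x axis and in NdpKO on the y axis, both as FPKM + 0.5 on log axes; the solid line marks equal levels and the dashed lines 1.5-fold. The 30 genes called higher (red) and the 26 called lower (blue) stand outside a narrow band of genes, and most of them are at the low end. Grey points beyond the dashed lines are genes whose deposited intervals overlapped.

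Cldn5, the claudin that seals endothelial tight junctions (chr16:18776847-18778262), had the third lowest log2 ratio of the called genes. It was at 6.91 FPKM in WT (5.18 to 8.63) and 0.675 FPKM in NdpKO (0.378 to 0.971), a log2 ratio of -2.66, and at 19.4 FPKM in stabilized and 16.7 FPKM in stabilized NdpKO. The WT level was thus 10.2 times that of NdpKO, while the stabilized libraries were both above WT and close to each other (log2 ratio -0.21). It was the only junction gene called among the 13 tight and adherens junction genes compared, which had a median log2 ratio of 0.03. The scaffold gene Tjp1 had a ratio of 0.03, Jam2 and Jam3, both junctional adhesion molecules, 0.00 and -0.12, and the endothelial cell-selective adhesion molecule Esam -0.19.

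Next to Cldn5, genes of transport across the barrier endothelium were low in NdpKO. Slco1c1 (chr6:141524386-141570177), a carrier of thyroid hormone and organic anions, was at 0.396 FPKM in WT (0.242 to 0.550) and 0.0206 FPKM in NdpKO (0 to 0.0602), and at 3.63 and 2.32 FPKM in stabilized and stabilized NdpKO. Slc39a8, a zinc and manganese importer, was at 0.977 FPKM in WT (0.644 to 1.31) and 0.174 FPKM in NdpKO (0.0909 to 0.257), and at 1.35 and 1.56 FPKM in the stabilized libraries. Mfsd2a, the lysolipid transporter that limits transcytosis (chr4:122946851-122961188), was at 1.20 FPKM in WT (0.812 to 1.59) and 0.545 FPKM in NdpKO (0.329 to 0.761), and at 3.80 and 4.86 FPKM in the stabilized libraries. For each of these genes NdpKO was the lowest of the 4 libraries. Their log2 ratios were -0.78, -1.13 and -0.70, and they were the genes called among the 15 barrier transporters compared, none of which was called higher. Each reached the minimum mean only through its level in the stabilized libraries, so that with a minimum over WT and NdpKO alone none of them would have entered, and their number supports nothing about the list.

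Among the barrier transporters left out for low level or for lying on the X chromosome, the deposited intervals were apart for Abcb1a and Slc38a5, and both were lower in NdpKO. Abcb1a, the efflux pump P-glycoprotein, was at 0.287 FPKM in WT (0.182 to 0.391) and 0.0665 FPKM in NdpKO (0.0284 to 0.105), and at 0.893 and 1.02 FPKM in stabilized and stabilized NdpKO. Slc38a5, an X-linked glutamine transporter, was at 0.611 FPKM in WT (0.368 to 0.854) and 0.172 FPKM in NdpKO (0.0638 to 0.280), and at 2.60 and 1.33 FPKM in the stabilized libraries. In contrast, the glucose transporter Slc2a1 (79.9 FPKM in WT and 92.6 FPKM in NdpKO), the amino acid transporter Slc7a5 (21.5 and 20.7 FPKM) and the lactate carrier Slc16a1 (14.5 and 17.5 FPKM) were not called. These abundant transporters are also made by cells of the retina outside vessels. The median log2 ratio of the 15 barrier transporters was -0.21, but it turned on the filter: it was -0.06 with the minimum taken over WT and NdpKO alone and 0.15 with a minimum mean of 5 FPKM.

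The 250 bases upstream of the RefSeq start of Cldn5 and Slco1c1 are shown as the regulatory sequence next to the junction gene called lower and a transporter gene called lower whose NdpKO interval reached 0. Capitals mark a match to a TCF/LEF motif, searched on both strands in the spellings CTTTGAA and CTTTGAT, and also CTTTGTA and CTTTGTT. Sequences are from RefSeq (GRCm38.p6, the assembly of mm10), plus strand, chr16:18776597-18776846 for Cldn5 and chr6:141524104-141524353 for Slco1c1.
Cldn5: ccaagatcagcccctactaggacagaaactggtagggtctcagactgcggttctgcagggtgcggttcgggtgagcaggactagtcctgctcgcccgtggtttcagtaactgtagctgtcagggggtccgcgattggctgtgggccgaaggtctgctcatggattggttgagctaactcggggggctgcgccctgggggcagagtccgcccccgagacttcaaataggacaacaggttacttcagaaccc
Slco1c1: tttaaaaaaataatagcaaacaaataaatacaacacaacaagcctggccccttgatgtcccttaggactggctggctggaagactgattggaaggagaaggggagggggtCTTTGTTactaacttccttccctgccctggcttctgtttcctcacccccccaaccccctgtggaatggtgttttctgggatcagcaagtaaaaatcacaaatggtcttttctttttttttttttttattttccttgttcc
The window of Slco1c1 holds 1 match and that of Cldn5 none of these letters. A match was found for 5 of the 14 genes called lower that have an entry (35.7%), namely Slco1c1, Slc39a8, Spp1, Zfp534 and Gm4792, and for 3 of the 18 called higher (16.7%), namely Bub1b, Emp1 and Rec8. Among the 8820 genes compared that have an entry the share was 11.8%, and among all 27025 entries it was 16.8%. The SOX motif AACAAT was found in none of the 14 lower and 1 of the 18 higher genes (Igf2), against 6.46% of the genes compared. A gene with several windows was counted if any of them held a match, as for Slc39a8, Spp1 and Emp1. Slco1c1, Slc39a8 and Zfp534 entered the comparison only through the stabilized libraries, so the share among the lower genes supports nothing about the motif. A match is a description of the letters and was not tested against binding.

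Plvap, the protein of fenestral diaphragms (chr8:71497753-71511769), was higher in NdpKO. It lay at 1.72 FPKM in WT (1.20 to 2.24) and 4.40 FPKM in NdpKO (3.30 to 5.50), a log2 ratio of 1.14, and at 1.33 and 2.22 FPKM in stabilized and stabilized NdpKO. NdpKO was the highest of the 4 libraries. The other 8 genes compared for fenestration and transcytosis were all above 0 but none was called, from Cav1, the main caveolar coat protein (0.03), to the membrane remodelling protein Ehd4 (0.34). All 9 above 0 compares with 44% of all genes.

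Pan-endothelial genes did not move in 1 direction. Of the 19 compared, 10 were above 0, the median was 0.03, and the summed level was 129.0 FPKM in WT and 129.34 FPKM in NdpKO. Kdr and Podxl, which retinal neurons also express, made up much of that sum, with 39.0 and 42.5 FPKM in WT. The endothelial adhesion molecule Pecam1 was at 1.93 FPKM in WT and 2.02 FPKM in NdpKO, and the endothelial cadherin Cdh5 at 0.754 FPKM in WT (0.529 to 0.980) and 1.36 FPKM in NdpKO (0.999 to 1.72), while Cd34 (3.92 and 2.95 FPKM) and Egfl7 (6.83 and 5.02 FPKM) were on the other side. Eltd1, an endothelial adhesion receptor, was the pan-endothelial gene called: it lay at 1.36 FPKM in WT (0.984 to 1.73) and 0.532 FPKM in NdpKO (0.355 to 0.710), with 3.79 and 3.72 FPKM in the stabilized libraries. It too entered only through the stabilized libraries. In whole retina, fewer cells of a type and less RNA per cell cannot be told apart. Sox17, an endothelial transcription factor under the minimum level, was at 0.399 FPKM in WT (0.240 to 0.558) and 0.126 FPKM in NdpKO (0.0507 to 0.201).

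**Figure D2:**
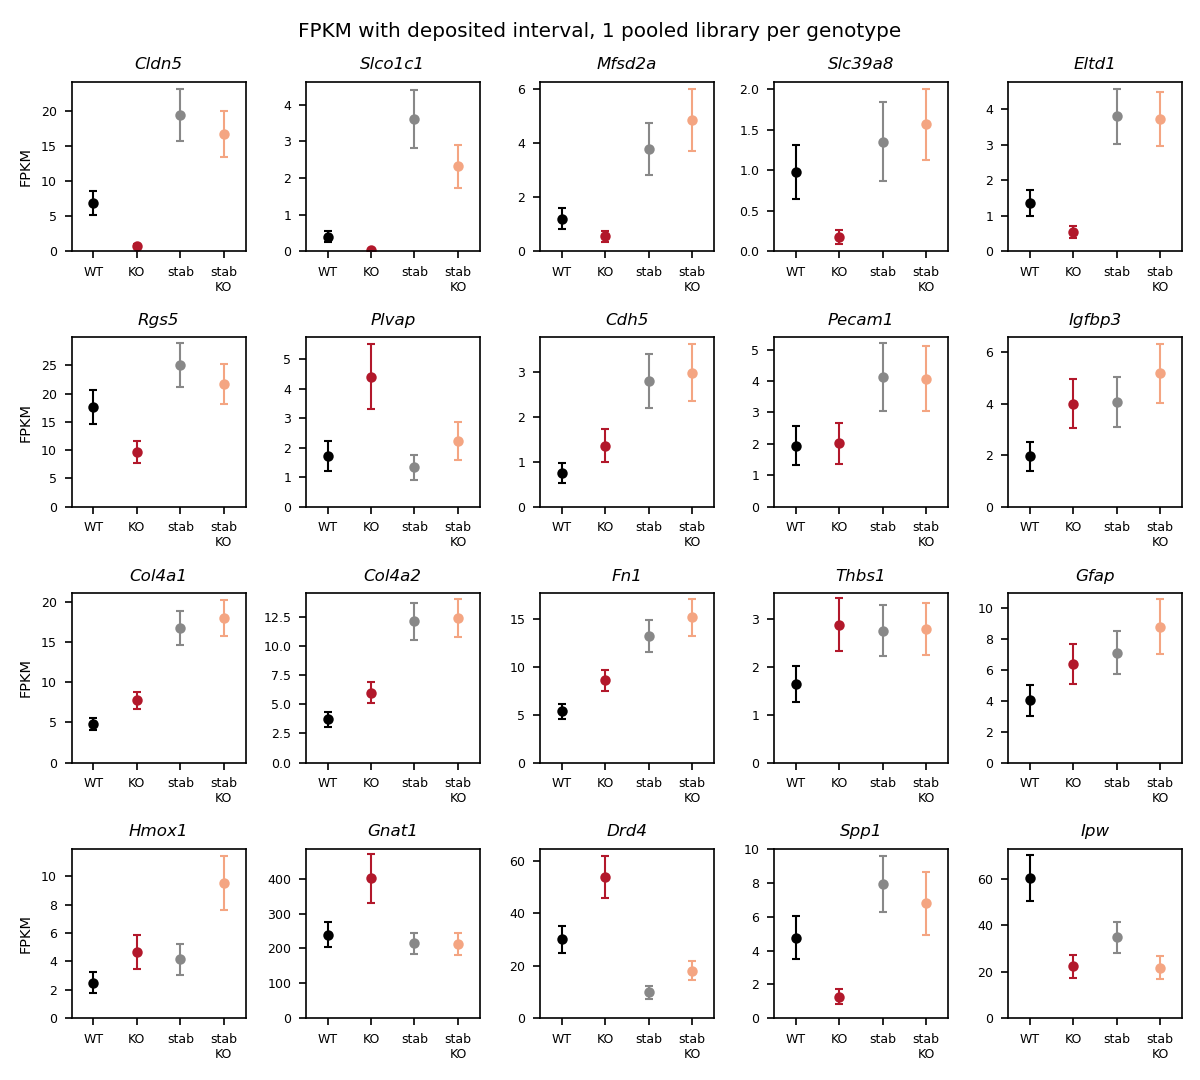
FPKM of 20 genes in the 4 libraries (WT, NdpKO, stabilized and stabilized NdpKO; KO stands for NdpKO and stab for stabilized), with the deposited interval as the bar and each y axis starting at 0. The barrier genes Cldn5, Slco1c1 and Mfsd2a are lowest in NdpKO and highest in a stabilized library, while Plvap is highest in NdpKO.

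Among genes of endothelial tip cells, which lead new sprouts, Igfbp3 was called higher. It was at 1.96 FPKM in WT and 4.00 FPKM in NdpKO, a log2 ratio of 0.87, and at 4.05 and 5.18 FPKM in the stabilized libraries. Adm, the vasoactive peptide adrenomedullin, was at 2.01 and 3.32 FPKM in WT and NdpKO (0.60), past 1.5-fold but with overlapping intervals. The chemokine receptor Cxcr4 (7.36 and 5.18 FPKM), the apelin receptor Aplnr (1.56 and 1.16 FPKM) and the Notch ligand Dll4 (1.27 and 1.08 FPKM) were lower without a call, and the median of the 14 genes was 0.05. None of the 16 arterial, venous and Notch genes compared was called, with a median of -0.01. Gja5, an arterial connexin under the minimum level, was at 0.109 FPKM in WT (0.0460 to 0.171) and 0.421 FPKM in NdpKO (0.263 to 0.579).

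Most vascular basement membrane genes were on the NdpKO side, but their summed level was not. Of the 15 compared, 12 were above 0, against 44% of all genes, with a median of 0.16. Nid2 and Hspg2, both above 0, entered only through the stabilized libraries, so the count of 12 rests in part on them. Col4a1, Col4a2 and Fn1 were called higher, against 0.241% of all genes. The summed level was 224 FPKM in WT and 220 FPKM in NdpKO, most of it from the matrix protein Sparc (160 and 146 FPKM). Col4a1 (chr8:11198423-11312826), a chain of type IV collagen, was at 4.81 FPKM in WT (4.06 to 5.55) and 7.77 FPKM in NdpKO (6.69 to 8.84). Its divergently transcribed neighbour Col4a2 was at 3.69 and 5.98 FPKM, and fibronectin, Fn1, at 5.35 FPKM in WT (4.59 to 6.11) and 8.60 FPKM in NdpKO (7.47 to 9.74). These genes shared a log2 ratio of 0.63 or 0.64. They were higher still in the stabilized libraries, where Col4a1 was at 16.7 and 18 FPKM and Fn1 at 13.2 and 15.2 FPKM, with log2 ratios of 0.10 and 0.20 between stabilized NdpKO and stabilized. The laminins Lamb1, Lamc1 and Lama5 (0.23, 0.21 and 0.16) were above 0 without a call, and the matrix protein Vwa1 was at -0.48.

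Among the 10 pericyte and smooth muscle genes compared, Rgs5 was called, and it was lower. The list lay on both sides of 0. Of the 10 genes, 6 were above 0 with a median of 0.02. The summed level was 76.0 FPKM in WT and 87.4 FPKM in NdpKO. Vtn (26.3 and 36.5 FPKM) and Ndufa4l2 (19.3 and 28.5 FPKM) made up much of that sum. Both were higher in NdpKO, so the sum says little about the other members. Acta2 and Abcc9 entered only through the stabilized libraries. Rgs5, a regulator of G protein signalling that marks pericytes (chr1:169655501-169693526), was at 17.6 FPKM in WT (14.5 to 20.6) and 9.63 FPKM in NdpKO (7.67 to 11.6), a log2 ratio of -0.84, with 25 and 21.7 FPKM in the stabilized libraries. None of the other members was called. Pdgfrb, the receptor by which pericytes are recruited, was at 1.21 FPKM in WT and 1.26 FPKM in NdpKO, and Ndufa4l2 and Vtn, which pericytes also express, were on the higher side (0.55 and 0.47) with intervals that for Vtn were apart. Of the 8 members under the minimum level, intervals were apart for the pericyte gene Higd1b alone. It was at 1.14 FPKM in WT (0.664 to 1.62) and 0.218 FPKM in NdpKO (0.0340 to 0.402).

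The receptor and signalling genes of the pathway itself were level. None of the 18 genes compared of the Norrin receptor and beta-catenin destruction complexes was called, and all lay between -0.15 and 0.17 on the log2 scale. Fzd4 was at 2.15 FPKM in WT and 1.99 FPKM in NdpKO, Lrp5 at 3.06 and 2.78 FPKM, Tspan12 at 6.83 and 7.01 FPKM, and Ctnnb1, the beta-catenin gene, at 144 and 138 FPKM. None of the 13 canonical Wnt target and feedback genes compared was called either, with a median of -0.02. The lowest were Apcdd1, a Wnt inhibitor (12.1 and 9.27 FPKM, -0.37), Ccnd1, cyclin D1 (20.0 and 15.7 FPKM, -0.34), and Nkd1, a feedback inhibitor (7.99 and 6.75 FPKM, -0.23), while Axin2 was at 5.37 and 5.30 FPKM. A further 10 genes of that list were below the minimum level. Intervals were apart for Sox17 alone of these, which was lower in NdpKO (0.399 FPKM in WT and 0.126 FPKM in NdpKO). Whole retina holds few endothelial cells among many neurons and glia, and the part that each cell type contributes to these levels was not tested.

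Angiogenic factors were mostly on the higher side, with 15 of the 18 compared above 0, against 44% of all genes, and a median of 0.11. Thrombospondin, Thbs1, an inhibitor of angiogenesis, was the gene called, at 1.64 FPKM in WT (1.27 to 2.02) and 2.89 FPKM in NdpKO (2.33 to 3.44). Vegfa, the main inducer of vessel growth, was at 107 FPKM in WT and 116 FPKM in NdpKO (0.11), and Flt1, a receptor that binds and sequesters it, at 2.34 and 3.01 FPKM (0.30). Genes of the hypoxia response and glycolysis had 29 of 41 above 0, against 44% of all genes, and a median of 0.09. Hexokinase 2, Hk2, was called (3.5 and 5.75 FPKM, 0.64). Further glycolytic enzymes were higher by less: Gpi1 was at 134 and 173 FPKM (0.37), Hk1 at 74.0 and 95.2 FPKM (0.36) and Pkm2 at 515 and 617 FPKM (0.26). Targets of the hypoxia-inducible factors outside glycolysis lay on both sides, with Adm (0.60) and Bhlhe40 (0.40) among the highest of the list and Ankrd37, Egln3 and Bnip3l the lowest (-0.21, -0.20 and -0.15). Nuclear-encoded genes of oxidative phosphorylation had 7 of 32 above 0, against 44% of all genes, and a median of -0.10, with none called. Cox8a was the lowest, at 664 FPKM in WT and 546 FPKM in NdpKO (-0.28), and Uqcrc1 the highest, at 87.6 and 96.6 FPKM (0.14). In the stabilized pair the median was 0.14 for hypoxia and glycolysis and 0.11 for oxidative phosphorylation, against 0.04 over all genes there.

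Glial stress genes included several called higher. Gfap, the intermediate filament of astrocytes and of reactive Muller glia, was at 4.02 FPKM in WT (2.98 to 5.05) and 6.38 FPKM in NdpKO (5.11 to 7.65), and at 7.10 and 8.80 FPKM in the stabilized libraries. Hmox1, the heme-degrading enzyme induced by oxidative stress, was at 2.51 FPKM in WT (1.79 to 3.23) and 4.67 FPKM in NdpKO (3.5 to 5.84), and at 4.14 and 9.52 FPKM in the stabilized libraries. The protease inhibitor A2m was at 0.654 and 1.33 FPKM, and entered only through the stabilized libraries. These 3 were called among the 20 gliosis and stress genes compared, against 0.241% of all genes called higher. As A2m came in through the stabilized libraries, their number supports nothing about the list. Of the 20 genes, 15 were above 0, against 44% of all genes, with a median of 0.12. The cytokine feedback gene Socs3 (1.51 and 1.08 FPKM, -0.35) was the lowest. None of the 23 Muller glia genes compared was called (median 0.02), and Gfap was the gene called among 11 astrocyte genes (median 0.13). The inducible chaperone Hspa1a (2.35 and 4.19 FPKM) was the gene called among 21 of the unfolded protein and heat shock responses. With its near-identical copy Hspa1b it summed to 4.78 FPKM in WT and 7.80 FPKM in NdpKO.

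Microglia and macrophage genes were low in NdpKO as a list. Of the 18 compared, 1 was above 0, Csf1r (2.72 and 2.81 FPKM), against 44% of all genes. The median of the list was -0.16, and the summed level was 114 FPKM in WT and 95.9 FPKM in NdpKO. Spp1, osteopontin, was the gene called, at 4.77 FPKM in WT (3.51 to 6.04), 1.28 FPKM in NdpKO (0.843 to 1.71), and 7.94 and 6.79 FPKM in the stabilized libraries. Retinal ganglion cells also express Spp1. The lysosomal glycoprotein Cd68 (3.04 and 1.74 FPKM), the purinergic receptor P2ry12 (3.13 and 2.03 FPKM) and the Fc receptor chain Fcer1g (3.39 and 2.25 FPKM) followed at -0.66, -0.52 and -0.50. The complement genes C1qa, C1qb and C1qc lay nearer to 0 (-0.22, -0.16 and -0.05). In the stabilized pair the list had a median of 0.10, above the 0.04 of all genes, so that its direction was not that of the first pair.

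Rod genes were on the higher side. Of the 32 compared, 27 were above 0, against 44% of all genes, with a median of 0.19. The summed level was 13925 FPKM in WT and 15092 FPKM in NdpKO. Gnat1, the alpha subunit of rod transducin, was at 239 FPKM in WT (204 to 275) and 401 FPKM in NdpKO (330 to 471), and at 215 and 213 FPKM in stabilized and stabilized NdpKO. NdpKO stood apart from the other 3 libraries, whose intervals for Gnat1 lay below its own. Slc24a1, the rod sodium, calcium and potassium exchanger, was also called, at 29.0 and 44.4 FPKM in WT and NdpKO, and the retinoid carrier Rbp3 was at 250 and 350 FPKM (0.48). Against these, the transducin gamma subunit Gngt1, which joins the product of Gnat1 in 1 complex, was at 1227 and 1037 FPKM (-0.24), and Guca1a and Pdc were also below 0 (-0.24 and -0.13). The rod median in the stabilized pair was 0.10. Cone genes had a median of 0.05 over 13, with none called, and the cone transducin gamma subunit Gngt2 was the lowest, at 172 and 119 FPKM (-0.53), with intervals apart.

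Of the ganglion cell genes 19 of 24 were above 0, against 44% of all genes, with a median of 0.18 and none called. The neurofilament genes Nefh (9.10 and 13.6 FPKM, 0.56), Nefm (25.4 and 36.6 FPKM, 0.52) and Nefl (109 and 132 FPKM, 0.27) were among the highest, while Stmn2 (114 and 103 FPKM) and Gap43 (66.9 and 62.7 FPKM), both abundant in growing axons, were at -0.14 and -0.09. Median ratios were -0.02 for 21 bipolar, -0.03 for 21 amacrine and -0.03 for 10 horizontal cell genes, with none called. Drd4, the dopamine receptor of photoreceptors whose RNA cycles with the clock (chr7:141292006-141295001), was called higher. It was at 30.0 FPKM in WT (25 to 35.1) and 53.9 FPKM in NdpKO (46.0 to 61.8), and at 9.88 FPKM in stabilized and 18.2 FPKM in stabilized NdpKO. The ratio was thus nearly the same in both pairs (0.83 and 0.85), although the stabilized libraries were both below WT. Clock genes did not follow Drd4: Bhlhe41 was at 0.46, Per1 at 0.26, Arntl at -0.03 and Nr1d1 at 0.01, and none was called among the other 15 genes of the clock and dopamine list.

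**Figure D3:**
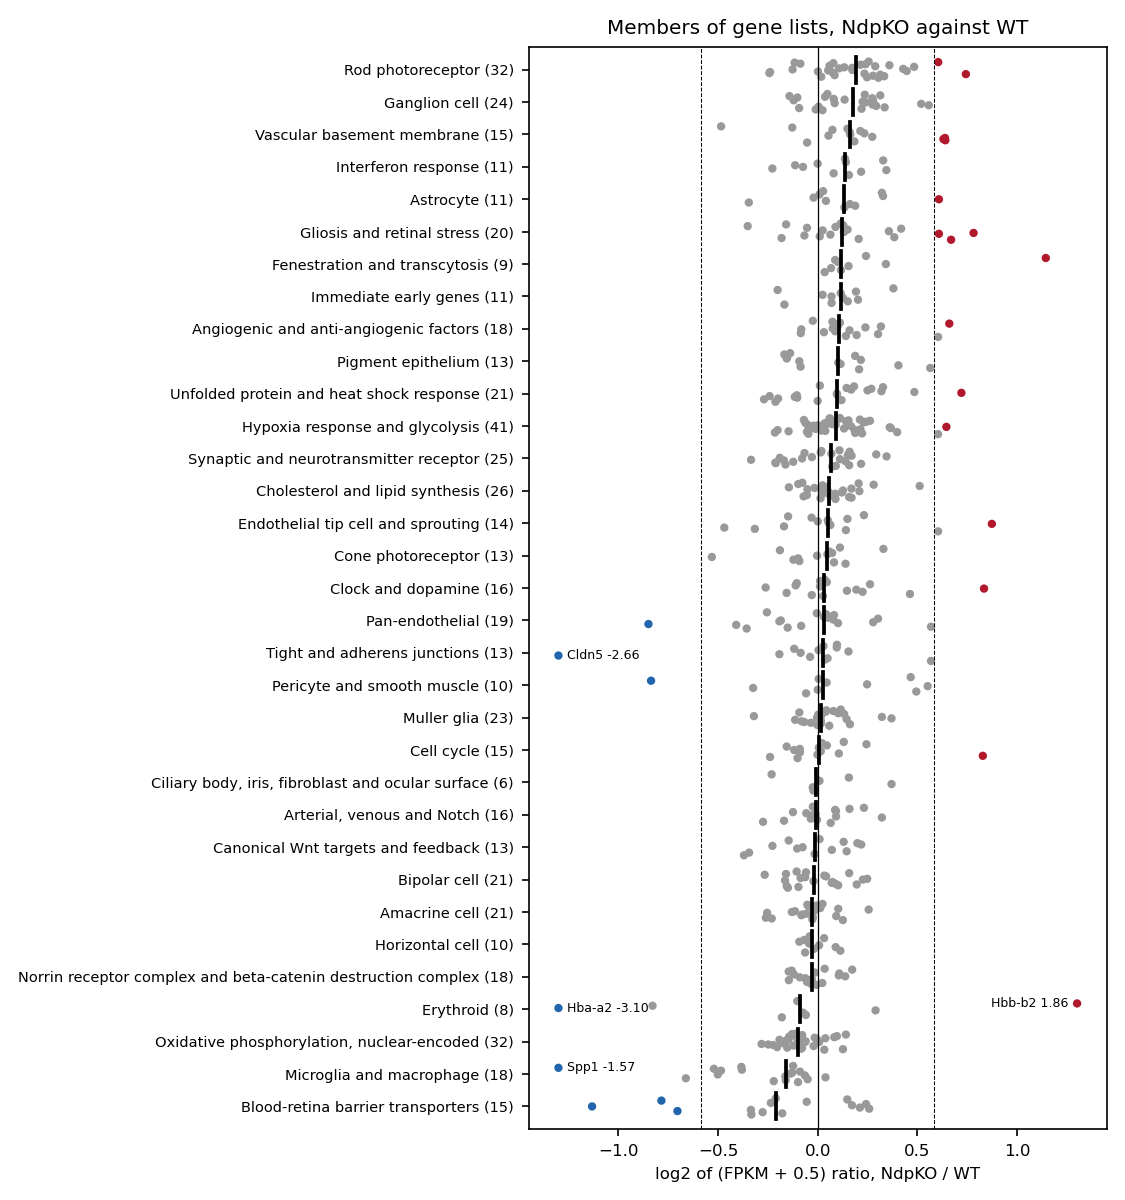
Each point is a gene compared, placed by its log2 ratio of (FPKM + 0.5), NdpKO against WT, in gene lists ordered by their median (black bar); the number of genes is in brackets, red and blue points were called, and dashed lines mark 1.5-fold. Points beyond 1.3 in size are drawn at the edge with their value. Rod, ganglion cell and basement membrane medians are highest (0.19, 0.18 and 0.16), and the microglia median (-0.16) is among the lowest. The barrier transporter median, drawn lowest at -0.21, is -0.06 with the minimum taken over WT and NdpKO alone.

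Markers of neighbouring tissues that a dissected retina can carry were given the same comparison. Of 13 pigment epithelium genes, 7 were above 0 with a median of 0.10 and none called, of 6 ciliary body, iris and fibroblast genes the median was -0.01 with none called, and of 18 lens genes 2 were compared, Cryab (-0.20) and Crybb3 (0.19). Erythroid genes had a call in each direction. The globin Hba-a2 was at 3.79 FPKM in WT and 0.00073 FPKM in NdpKO, and Hbb-b2 at 2.93 and 12 FPKM. These genes have near-identical copies: alpha globins summed to 45.9 FPKM in WT and 51.5 FPKM in NdpKO, and beta globins to 23.6 and 23.4 FPKM, so both calls left the sum over copies nearly level. The same held for Atp6v0c-ps2, a pseudogene that went from 36.3 to 94.9 FPKM while its sum with the parent gene Atp6v0c went from 403 to 426 FPKM. It did not hold for the pseudogenes Pisd-ps1 and Pisd-ps2, which with Pisd summed to 77.7 FPKM in WT and 40.2 FPKM in NdpKO. The table does not say how fragments were divided among such copies. Cell cycle genes had a median of 0.01 over 15, with the spindle checkpoint kinase Bub1b (1.52 and 3.08 FPKM) called higher, and no gene was called among the 26 of cholesterol and lipid synthesis (0.06), the 25 of synapses and transmitter receptors (0.07), the 11 immediate early (0.12) and the 11 interferon response genes (0.14).

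Outside these lists, Ipw, an imprinted non-coding RNA of the Prader-Willi region (chr7:59619158-59678878), was called lower, at 60.3 FPKM in WT (50.4 to 70.2) and 22.4 FPKM in NdpKO (17.5 to 27.4), and at 34.9 and 21.7 FPKM in the stabilized pair. The log2 ratios were -1.41 and -0.67, and in each pair the library without Ndp was below the library with it.

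Of the genes called higher outside the lists, Igf2 and H19, imprinted neighbours on chromosome 7, moved together. Igf2, a fetal growth factor (chr7:142650768-142670356), was at 14.5 and 24.6 FPKM in WT and NdpKO and at 21.4 and 33.0 FPKM in the stabilized pair. H19, a non-coding RNA (chr7:142575532-142578146), was at 9.59 and 15.2 FPKM, and at 8.68 and 12.4 FPKM in the stabilized pair. Both were higher without Ndp in each pair. The meiotic cohesin Rec8 was at 0.807 FPKM in WT (0.530 to 1.08) and 2.70 FPKM in NdpKO (1.98 to 3.42), but at 0.710 and 0.620 FPKM in the stabilized pair, so NdpKO alone was high. The water channel Aqp1 (2.55 and 4.29 FPKM), the iron carrier transferrin, Trf (6.26 and 9.76 FPKM), and the lipid enzyme Cds1 (7.88 and 12.9 FPKM) were also called higher.

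A further 12 genes outside the lists were called lower in NdpKO. Serpina3h, a serine protease inhibitor, was at 0.498 FPKM in WT and 0.0278 FPKM in NdpKO, and at 1.69 and 1.97 FPKM in the stabilized libraries, with NdpKO the lowest of the 4, and it entered only through the stabilized libraries. Col17a1, a collagen of hemidesmosomes, was at 3.66 and 2.03 FPKM, Lrrc17 at 2.45 and 1.23 FPKM, Rmnd1, a factor of mitochondrial translation, at 9.63 and 5.64 FPKM, and Rn4.5s, a small RNA gene, at 151 and 83.9 FPKM. Plac9 was the nearest to the threshold on the lower side (-0.65). The other 6 carry provisional symbols, and 1810007I06Rik, the lowest of them (1.95 and 0.201 FPKM, -1.81), went the other way in the stabilized pair (0.254 and 1.70 FPKM). On the higher side were Emp1, an epithelial membrane protein (1.19 and 2.28 FPKM), the homeobox gene Irx2 (1.03 and 1.96 FPKM), Hddc3 (17.2 and 26.6 FPKM) and Gm11127 (1.92 and 3.55 FPKM). Loci of 6 of the 30 higher and 8 of the 26 lower genes overlap another gene in the table, against 19.3% of all genes compared, among them Slc39a8, Igf2, H19, Lrrc17 and Rmnd1. Rmnd1 shares its locus with Gm5512, which went the other way without a call, at 3.08 FPKM in WT and 6.14 FPKM in NdpKO. As it is not stated whether strand was used in counting, fragments of such neighbours cannot be told apart.

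The stabilized pair shares no library with WT and NdpKO, and gives the same difference in Ndp where beta-catenin is stabilized in endothelial cells. In that pair 22 genes were called higher (0.176%) and 13 lower (0.104%). Of the 30 genes called higher in NdpKO against WT, 24 had the same sign there, where 63.4% of all genes were above 0, with a median of 0.26 against 0.70 in the first pair. Of the 26 called lower, 19 had the same sign, where 36.6% of all genes were below 0, with a median of -0.23 against -0.89. In both pairs the same call was given to 10 genes, 6 higher and 4 lower, with Hddc3, Igf2, Hmox1, Drd4, Gm13152 and Emp1 on the higher side and Ipw and Lrrc17 among the lower. A single gene was called in opposite directions. The barrier transporter Slc38a5, left out of the comparison for lying on the X chromosome, was also lower by the same rule in both pairs (-0.73 and -0.76). Of the 22 genes called higher in the stabilized pair, 15 had the same sign in the first pair, where 44% of all genes were above 0. Of the 13 called lower in the stabilized pair, 8 had the same sign in the first, where 56% were below 0. Most genes called in the first pair had smaller ratios or the other sign in the stabilized pair, barrier and vascular genes as well as others. Choosing genes by their ratio in the first pair can alone give ratios nearer to 0 in another. Cldn5 went from -2.66 to -0.21, Slc39a8 from -1.13 to 0.16, Mfsd2a from -0.70 to 0.32, Eltd1 from -0.85 to -0.03 and the pericyte gene Rgs5 from -0.84 to -0.20, and outside the vessels Gnat1 went from 0.74 to -0.01, Rec8 from 1.29 to -0.11 and Hspa1a from 0.72 to 0.05. Slco1c1 (-0.78 and -0.55) and Plvap (1.14 and 0.57) kept their sign in both pairs without a call in the second. Whether the pairs differ was not tested, since each has 1 library per genotype.

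**Figure D4:**
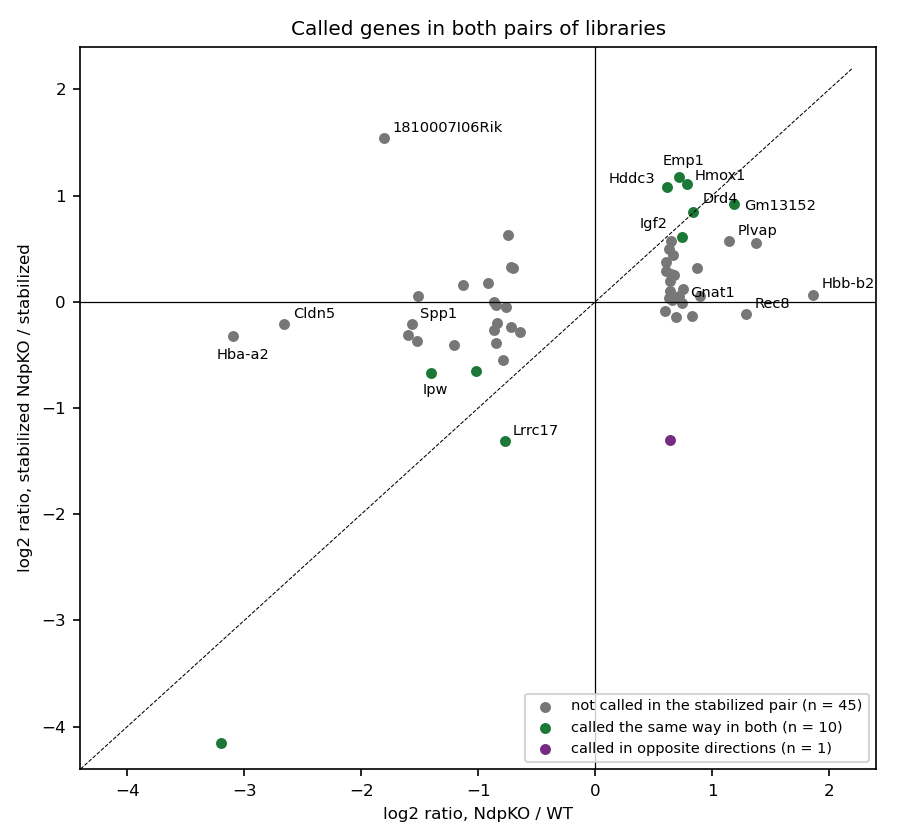
Each point is 1 of the 56 genes called in NdpKO against WT, with that log2 ratio of (FPKM + 0.5) on the x axis and the log2 ratio of stabilized NdpKO against stabilized on the y axis; the dashed line marks equal ratios. The 10 genes called the same way in both (green) include Ipw and Drd4, 1 gene (purple) was called in opposite directions, and Cldn5 lies near 0 on the y axis.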

How the data were processed

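Libraries were prepared with Illumina's TruSeq RNA kit, per the labels' protocols, and TopHat, Cuffdiff and mm10 are named in the submitters' processing notes. The authors deposited 1 table with FPKM, an interval and a status per gene and library. For tool versions, gene annotation, strand, read totals and the intervals' confidence level, nothing was found in the sources used here. FPKM are relative within a library, so a shift in abundant RNA moves all other genes.

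Columns were matched to libraries by the sample number in the descriptions, and 0 columns lay outside the series. Log2 ratios used FPKM + 0.5, which understates differences of low genes. With 1 library per genotype no test was run. The 35 gene lists (34 with compared genes, 544 of 721 genes compared, 7 symbols matched through an older name), the members and the call rule were chosen with earlier results of these data known. Named were the 20 highest and 20 lowest called genes, every called list member, up to 3 more per list and direction, and a fixed set; Trf, H19, Hddc3, Abcb1a, Slc38a5, Sox17, Krt18, Cd68, Slfn5, Zfp433, Maob, Eif2s3y, Kdm5d, Uty, Hspa1b, Atp6v0c, Pisd, Eif2s3x, Gm13152, Gm4792, Gm11127, 1810007I06Rik and some list members given for contrast were named after their values were seen. Alternatives were pseudocounts of 0.1 and 1, other minimum levels, re-centring, TPM scaling, every status, and short RNAs or X and Y genes kept. A few genes are not reported here. The procedure was tested on simulated data. Python 3.11.15, numpy 2.4.6, pandas 2.3.3 and matplotlib 3.10.9 were used.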

Additional observations from a re-analysis of the deposited data

Results flagged for a closer look

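Genes on the X and Y chromosomes were outside the comparison, and those past 1.5-fold higher in NdpKO than in WT with intervals apart are given here. The Y-linked genes Eif2s3y (51.4 FPKM in NdpKO and 0.352 FPKM in WT), Ddx3y (18.7 and 0.0896 FPKM), Uty (8.35 and 0.0588 FPKM) and Kdm5d (6.11 and 0.0345 FPKM) were near 0 in both libraries with intact Ndp. Maob, monoamine oxidase B, lies on the X chromosome (16709281 to 16817366), near Ndp (16885522 to 16911764). It was at 11 FPKM in NdpKO and 6.68 FPKM in WT, and at 9.39 and 5.76 FPKM in stabilized NdpKO and stabilized. Whether its place near Ndp bears on these levels was not tested.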

How the results depend on the processing

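No paired analysis was possible because each genotype has 1 library. The 30 higher and 26 lower calls became 15 and 13 at a minimum mean of 5 FPKM, where the genes lost, Plvap and Eltd1 among them, were under the minimum. With no minimum mean the lower calls numbered 43. The 1.5-fold difference alone gave 48 higher and 58 lower, intervals apart alone gave 52 higher, and 2-fold with intervals apart gave 5 and 12. Under the other settings the counts stayed within 1.5 times, between 21 and 35 higher and between 19 and 36 lower. No called gene changed sign, but none of these settings could have brought that about, so the signs say nothing about stability. A pseudocount of 1 ended the calls of Col4a2, Gfap, Thbs1, A2m, Mfsd2a and Slco1c1, among others. A minimum over WT and NdpKO alone left out Slc39a8, Mfsd2a, Slco1c1, Eltd1 and A2m and moved the barrier transporter median to -0.06, and a minimum of 5 FPKM moved it to 0.15. Of list medians under all settings, 11 moved by 0.1 or more and 397 did not. Levels under about 2 FPKM, where intervals are widest, limit the barrier genes.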

Other observations

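Tnfrsf8, a receptor of the tumour necrosis factor family, was called higher (1.56 FPKM in WT and 3.34 FPKM in NdpKO), as was Gm13152 (3.12 and 7.74 FPKM), and Zfp534 was called lower (1.62 and 0.237 FPKM).

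On the X chromosome, Eif2s3x was at 71.4 FPKM in WT and 44.7 FPKM in NdpKO, and Kdm6a at 17.0 and 11.7 FPKM. Both are genes known to be expressed from both X chromosomes in females.

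The pigment epithelium gene Rpe65 was at 2.90 and 3.45 FPKM in WT and NdpKO (0.22), with a log2 ratio of -0.92 in the stabilized pair. Col3a1, a fibroblast collagen under the minimum level, was at 0.0958 FPKM in WT and 0.267 FPKM in NdpKO, and Steap4, a metalloreductase, at 0.0504 and 0.183 FPKM.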
